A study of Mus musculus with 2 samples.

Results

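The Rorb cortical excitatory neurons described here were 774 of 26705 nuclei of mouse whole brain, 313 in the ShamRT-28d library and 461 in the WBRT-28d library. They were chosen by their own counts. A nucleus was taken when it held at least 1 UMI of Slc17a7, at least 3 of Rorb, at most 1 of Slc17a6 and 0 of Gad1 and Gad2, and when at most 2 of the 5 layer 6 genes Foxp2, Tle4, Hs3st4, Syt6 and Zfpm2 were detected. A UMI (unique molecular identifier) is a tag that counts 1 captured RNA molecule, and a nucleus is 1 droplet barcode in which 500 or more genes were detected and mitochondrial genes held 5% of the UMIs or less. Levels are given as counts per 1000000 UMIs (CPM), with the UMIs of a gene and all UMIs summed over the nuclei of a class and library. Since these genes chose the nuclei, their levels are a description and carry no test.

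Both libraries were made from frozen whole brains of C57BL/6J mice (C57BL/6 in the labels), each from 2 mice pooled before barcoding, so that no nucleus can be traced to its animal. WBRT-28d is whole-brain irradiation in 5 fractions of 2 Gy, with the brains taken 28 days after treatment. ShamRT-28d was mock-irradiated according to the study's methods and is called untreated in the sample labels. With 1 library per condition, no test between the conditions was possible, and animal, library and irradiation cannot be told apart. Ratios of WBRT-28d to ShamRT-28d are therefore given with exact 95% intervals that cover counting error only.

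Rorb encodes a nuclear receptor of the ROR family that marks layer 4 of the sensory cortex, the layer that receives the input of the thalamus. Slc17a7 encodes the vesicular transporter that loads glutamate into the synaptic vesicles of cortical excitatory neurons, while Slc17a6 encodes its subcortical counterpart and Gad1 and Gad2 the enzymes that make GABA in inhibitory neurons. Cux2, a homeobox factor, marks the excitatory neurons of the upper layers, and Tle4, Foxp2 and Syt6 mark layer 6 neurons that project to the thalamus. Rorb is also made outside these neurons, including in astrocytes.

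The 774 nuclei held a median of 7050 UMIs in ShamRT-28d and 6227 in WBRT-28d, against 2378 and 2594 over all kept nuclei. The 2 libraries held 45511469 and 68423922 UMIs in 11469 and 15986 barcodes. Of these barcodes, 43 occurred in both libraries, and none was a Rorb nucleus in both.

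The label held for most of the nuclei, but not for all. Each nucleus was assigned to the marker list with the most UMIs among 15 cortical excitatory genes (such as Neurod6, Camk2a and Mef2c) and 6 lists of other cell types. The cortical list led 259 of 313 nuclei of the ShamRT-28d library (82.7%, exact interval 78.1 to 86.8) and 321 of 461 of the WBRT-28d library (69.6%, 65.2 to 73.8). The astrocyte list led 39 nuclei in ShamRT-28d (12.5%) and 93 in WBRT-28d (20.2%). The oligodendrocyte list led 8 and 29, and the interneuron, OPC (oligodendrocyte precursor), microglia and vascular lists together the rest. These shares describe which nuclei met the gate and differed between the libraries in the same direction as the astrocyte and oligodendrocyte markers below.

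Most of the astrocyte-led nuclei had come in at the edge of the Slc17a7 criterion. Of the 39 such nuclei in ShamRT-28d, 37 held exactly 1 Slc17a7 UMI, as did 84 of the 93 in WBRT-28d. Astrocytes had ample Rorb of their own. Among nuclei with at least 4 of 5 astrocyte genes and 0 UMIs of Slc17a7, Slc17a6, Gad1 and Gad2, at least 3 Rorb UMIs were held by 69.2% of 389 (ShamRT-28d) and by 72.8% of 891 (WBRT-28d). The summed Rorb level was 1849 CPM in astrocytes of ShamRT-28d and 1770 CPM in those of WBRT-28d, and 1621 and 1234 CPM in the cortical-led Rorb nuclei. In oligodendrocytes it was 136 and 287 CPM, and in cortical-led Cux2 nuclei, which had at most 2 Rorb UMIs each, 20.4 and 32.7 CPM.

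**Figure D1:**
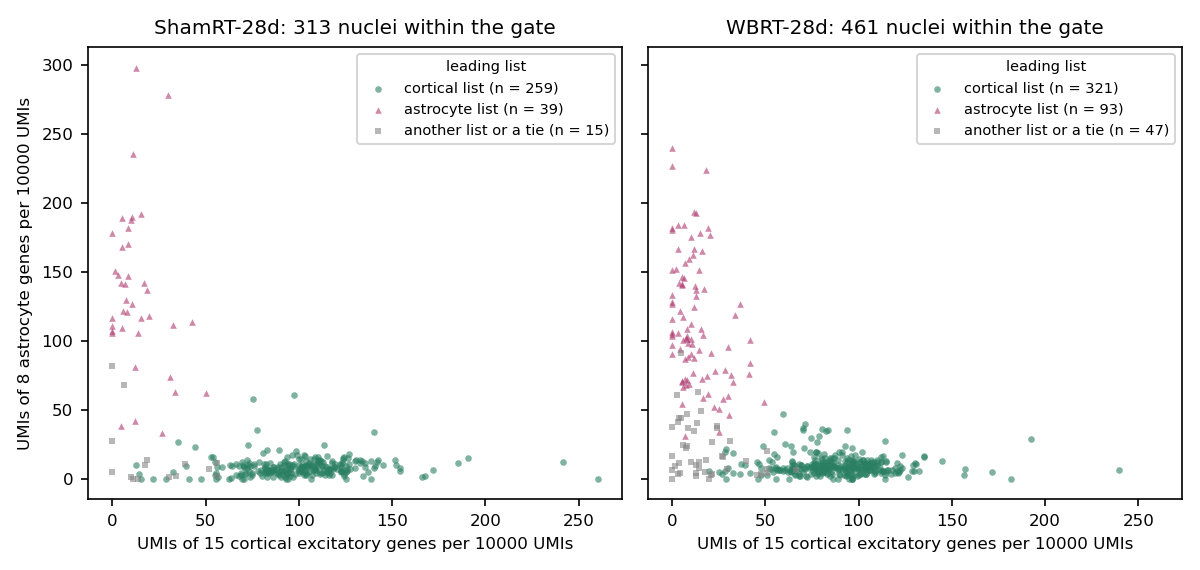
Each point is 1 Rorb nucleus of ShamRT-28d or WBRT-28d, with its UMIs of the cortical excitatory list (x axis) and of the astrocyte list (y axis), both per 10000 UMIs of that nucleus and coloured by the list that led it. The cortical-led nuclei (259 and 321) held 100 and 87.2 UMIs of the cortical list per 10000, and the astrocyte-led nuclei (39 and 93), a separate cloud, held 10.2 and 10.0.

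The rest of the text turns on the 580 cortical-led nuclei, a division made after the composition had been seen. Their levels of the cortical and glial lists are therefore partly set by that choice. They held a median of 8122 UMIs in ShamRT-28d and 7684 in WBRT-28d, and the other 194 nuclei are described only where they change a count. Slc1a3, the glutamate uptake transporter of astrocytes, was at 29.4 and 46.1 CPM in the cortical-led nuclei and at 1325 and 1103 CPM in the others. The level of Slc17a7 itself, at 247 and 241 CPM, lay near that of cortical-led Cux2 nuclei (239 and 233 CPM) and of layer 6 nuclei (293 and 263 CPM).

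At the threshold, exactly 3 Rorb UMIs were held by 33 nuclei in ShamRT-28d and 69 in WBRT-28d, and 72.7% and 60.9% of them were cortical-led. Just outside it, 38 and 82 nuclei held exactly 2, of which 71.1% and 64.6% were cortical-led. The median over cortical-led nuclei was 11 Rorb UMIs in ShamRT-28d and 8 in WBRT-28d.

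The share of Rorb nuclei among kept nuclei was 2.84% (2.53 to 3.16) in ShamRT-28d and 2.94% (2.68 to 3.22) in WBRT-28d, so the intervals overlapped. Cortical-led Rorb nuclei were 2.35% and 2.05% of kept nuclei. Among the cortical-led nuclei that met the excitatory criteria at any Rorb count, they made up 17.4% (15.5 to 19.4) in ShamRT-28d and 21.8% (19.7 to 24.0) in WBRT-28d. After every nucleus had been thinned to 2000 UMIs, with 4540 and 5363 shallower nuclei left out, 80 of 723 nuclei counted in the last share (8.87% to 13.6%) for ShamRT-28d and 85 of 711 (9.66% to 14.6%) for WBRT-28d. The order of the libraries thus depended on the nuclei taken as the whole, and dissection and depth cannot be told apart from a difference in these neurons.

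Next, the profile of the Rorb nuclei was compared with that of 2 neighbouring classes. Cux2 nuclei passed the same excitatory criteria with at least 3 Cux2 UMIs and at most 2 of Rorb (101 cortical-led nuclei in ShamRT-28d and 137 in WBRT-28d), and layer 6 nuclei held at least 3 of the 5 layer 6 genes and at most 2 Rorb UMIs (434 and 202). UMIs were summed per class and library and tested with edgeR's quasi-likelihood test with the library as a term, at a Benjamini-Hochberg adjusted p of 0.05, leaving out the 11 genes that set the gates. Nuclei were sorted on genes of the very profiles compared, so each call describes what goes with Rorb, Cux2 or the layer 6 genes in a nucleus. The p-values rest on how far the class differences varied between these 2 libraries, with that spread shared in part across genes. No value below is a difference between the conditions unless both are named.

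Against Cux2 nuclei, the cortical-led Rorb nuclei had higher levels of layer 4 genes and lower levels of layer 2/3 genes, while no general cortical gene was called. Of 11610 genes tested, 212 were higher in the Rorb nuclei (1.83% of those tested) and 322 were lower (2.77%). Of 9 layer 4 genes tested, 6 were higher and 0 lower, with a median log2 difference of 1.75 beside 0.00 over all genes tested. Of 12 layer 2/3 genes, 0 were higher and 6 lower, with a median of -1.02. Of 15 cortical identity genes, edgeR's quasi-likelihood test called 0 in either direction, with a median of -0.05. Nuclei of both classes were kept for leading on this list, so its similar level is partly set by that choice. With all nuclei of both classes, 1 of the 15 was called lower and 0 higher. With all 774 nuclei in place of the cortical-led ones, 360 genes of 12281 were higher (2.93%) and 436 lower (3.55%), and the leading higher genes were genes of astrocytes, among them Slc1a3, Gli3 and Gpc5.

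**Figure D2:**
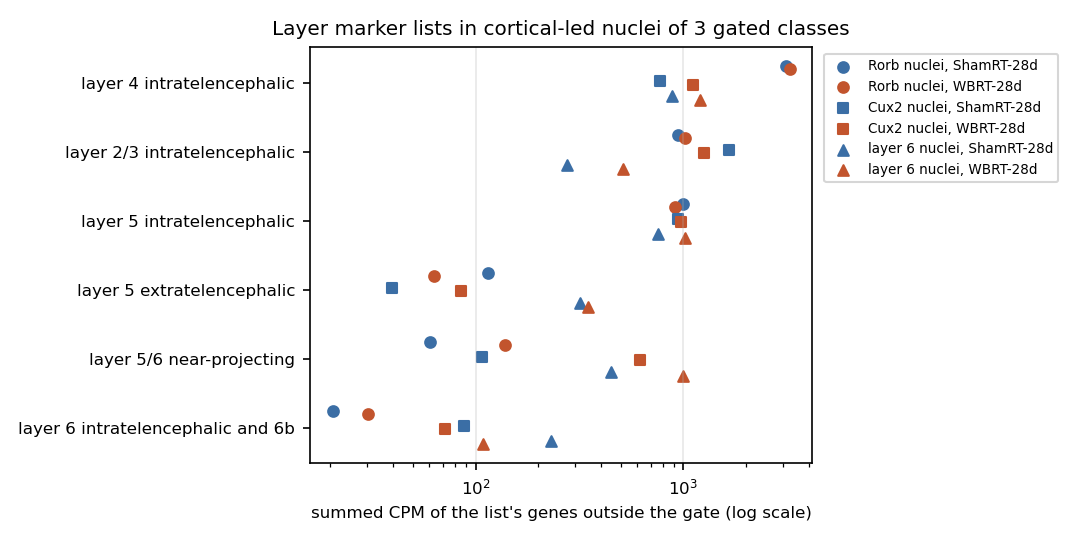
Summed level (CPM, log axis) of the marker lists of cortical layers and projection types in cortical-led Rorb, Cux2 and layer 6 nuclei, with a point for each library. The layer 4 list lay at 3112 CPM in ShamRT-28d and 3245 CPM in WBRT-28d in the Rorb nuclei.

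Among the layer 4 genes, Brinp3, which encodes a neural protein induced by BMP and retinoic acid, was at 1665 CPM in ShamRT-28d and 1983 CPM in WBRT-28d in the Rorb nuclei. In Cux2 nuclei it was at 490 and 584 CPM, so both Rorb values lay above both Cux2 values. The log2 difference was 1.75 ± 0.13 (SE), with an adjusted p of 1.1e-04 by edgeR's quasi-likelihood test with Benjamini-Hochberg adjustment. Kcnh5, a voltage-gated potassium channel, was at 609 and 508 CPM against 165 and 214 CPM. Rspo1, a secreted protein that strengthens Wnt signalling, was at 37.0 and 48.8 CPM against 3.06 and 11.2 CPM. Cnih3, an auxiliary protein of AMPA receptors, was at 140 and 113 CPM against 19.4 and 37.0 CPM. For all of them the classes did not overlap in either library, which adds nothing to the calls, since these genes were named from those called. The call of Rspo1 was lost without the library term (edgeR adjusted p = 0.061). Thsd7a and Il1rapl2 were also higher, while Scnn1a, a sodium channel subunit of layer 4, was at 5.63 and 4.19 CPM in the Rorb nuclei.

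The layer 2/3 genes went the other way. Otof, which encodes otoferlin, a calcium sensor of membrane fusion, was at 0.805 and 6.47 CPM in the Rorb nuclei and at 63.2 and 43.9 CPM in the Cux2 nuclei. Ccbe1, which encodes a secreted protein of the extracellular matrix, was at 10.5 and 11.8 CPM against 197 and 89.6 CPM. Mdga1, Stard8, Rasgrf2 and Lamp5 were the other 4 called lower. Of these 6 calls, 3 were kept by DESeq2 and 2 without the library term, against 6 and 4 of the 6 layer 4 calls. The layer 2/3 side of the difference rested more on the choice of test.

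Neurotransmitter receptor genes were called in both directions, and many of these calls depended on the library term. Over all genes tested against Cux2 nuclei, 1.83% were higher and 2.77% lower in the Rorb nuclei. Grm3, which encodes a metabotropic receptor coupled to inhibition of cyclic AMP, was at 982 and 470 CPM in the Rorb nuclei and at 433 and 245 CPM in the Cux2 nuclei, and its call was lost without the library term. Of 21 genes of AMPA, kainate and NMDA receptors and their auxiliaries, 3 were higher and 5 lower, of which 0 and 3 were kept without the library term. The kainate subunit Grik1 led the higher ones, with 32.6 and 81.5 CPM against 2.04 and 13.8 CPM. The AMPA subunit Gria3 was lower, with 481 and 284 CPM against 1203 and 928 CPM, a log2 difference of -1.53 ± 0.13 (SE, edgeR adjusted p = 2.8e-04). Of 15 GABA receptor genes, 1 was higher and 3 were lower, the lower ones being Gabrg3, Gabra3 and Gabra2. DESeq2 kept these 4 calls, and the fit without the library term kept 0 of them.

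**Figure D3:**
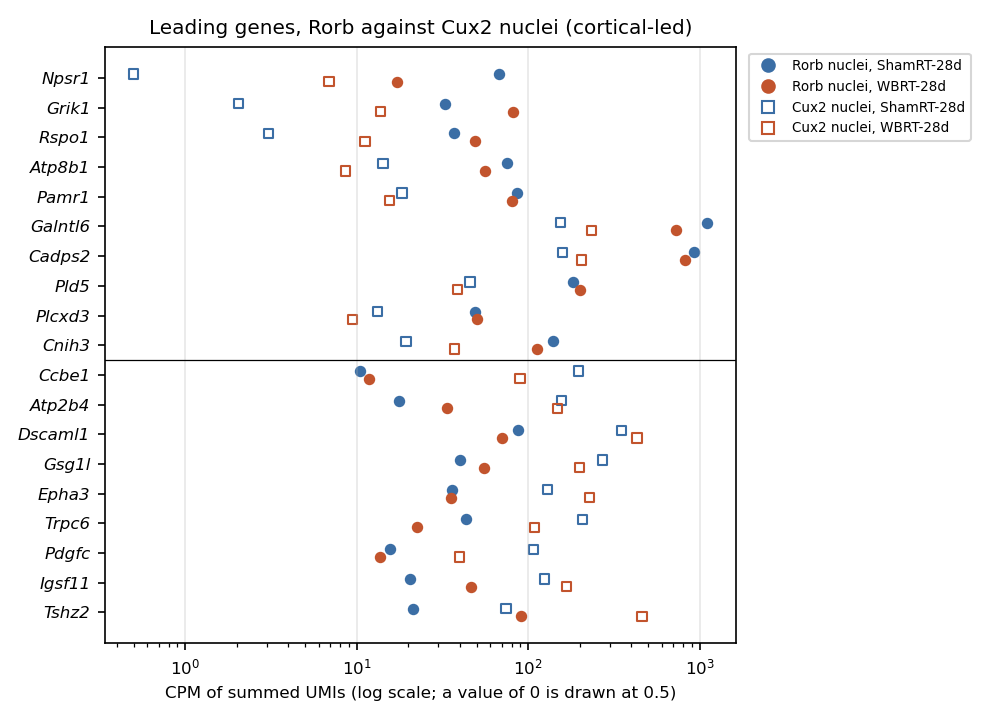
Levels (CPM, log axis, 0 drawn at 0.5) of 19 leading genes of the comparison between cortical-led Rorb and Cux2 nuclei, with a point for each class and library. Cadps2 lay at 927 and 827 CPM in the Rorb nuclei and at 158 and 204 CPM in the Cux2 nuclei.

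Other leading genes had varied roles. Cadps2, which primes dense-core vesicles, was at 927 and 827 CPM in the Rorb nuclei and at 158 and 204 CPM in the Cux2 nuclei. Galntl6, a member of the family that starts O-glycans, was at 1106 and 730 CPM against 155 and 235 CPM. Epha3, an ephrin receptor of axon guidance, was lower, at 35.8 and 35.4 CPM against 129 and 227 CPM. Of 30 axon guidance genes, 4 were higher, with the netrin receptors Unc5c and Dcc and the ligand Ntn4 among them, and 6 lower. The fit without the library term kept 0 of the higher and 2 of the lower guidance calls. Of 26 genes of presynaptic vesicle release, 2 were higher and 3 lower. Beside both lists, 1.83% of all genes tested were higher and 2.77% lower. Npsr1, the receptor of neuropeptide S, had the largest fitted difference of the higher genes, but its UMIs came from 7 nuclei in ShamRT-28d and 8 in WBRT-28d. In each library a single nucleus held 44.9% and 51.1% of them, and neither DESeq2 nor the fit without the library term called the gene.

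Against layer 6 nuclei the Rorb nuclei differed in more genes. Of 11610 tested, 623 were higher in the Rorb nuclei (5.37%) and 628 lower (5.41%). Layer 4 genes were higher for 7 of 9 tested and lower for 0, and layer 2/3 genes were higher for 7 of 12 and lower for 2, with Cux1 at 563 and 547 CPM against 81.5 and 154 CPM. All 6 near-projecting genes tested were lower, as were 3 of 4 of layer 6 intratelencephalic and 6b neurons and 4 of 6 of layer 5 extratelencephalic neurons. DESeq2 kept 5 of the 7 layer 4 calls, 2 of the 7 higher layer 2/3 calls, 3 of the 6 near-projecting calls, 2 of the 3 layer 6 calls and 1 of the 4 layer 5 extratelencephalic calls. The fit without the library term kept 4, 2, 2, 2 and 3 of them. Of the cortical identity list, 5 genes were higher and 2 lower, of which DESeq2 kept 4 and 1. Of the layer 5 intratelencephalic list, 1 was higher and 4 lower, of which DESeq2 kept 1 and 3. Without the library term, 2 and 1 calls of the first list were kept, and 0 and 2 of the second. With all 774 nuclei, 701 genes were higher (5.71%) and 620 lower (5.05%).

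The 10 leading higher genes included Hgf and Adam33, and the 10 leading lower genes Hcrtr2. The list counts below stand beside 5.37% higher and 5.41% lower over all genes tested. Hgf, hepatocyte growth factor, was at 54.7 and 41.1 CPM in the Rorb nuclei and at 1.28 and 7.29 CPM in the layer 6 nuclei. Adam33, a membrane metalloprotease, was at 135 and 125 CPM against 4.48 and 8.50 CPM. From the guidance list, in which 9 of 30 genes were higher and 9 lower, Unc5d, a netrin receptor, was at 1640 and 2150 CPM against 165 and 392 CPM. On the lower side, the orexin receptor gene Hcrtr2 was at 1.61 and 0 CPM in the Rorb nuclei and at 42.6 and 41.3 CPM in layer 6, a call that DESeq2 did not keep. Nrp1, the semaphorin receptor neuropilin 1, was at 31.8 and 28.6 CPM against 314 and 295 CPM, and Sema3e, a secreted semaphorin, was lower too. From the adhesion list, with 10 of 26 genes higher and 7 lower, Cdh18, a type II cadherin, was at 416 and 264 CPM against 2711 and 2299 CPM. In each of these the Rorb and layer 6 levels did not overlap, which adds nothing to the calls, since they were named from the genes called.

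Several clock genes were also higher than in layer 6. Over all genes tested against layer 6 nuclei, 5.37% were higher and 5.41% lower. Of 16 tested, 6 were higher and 0 lower, with a median log2 difference of 0.56 beside 0.00 over all genes. Rora, which encodes the receptor closest to Rorb, was at 2704 CPM in ShamRT-28d and 3154 CPM in WBRT-28d in the Rorb nuclei, at 994 and 1311 CPM in Cux2 nuclei, and at 739 and 1076 CPM in layer 6 nuclei. Npas2, Arntl, Nr1d1, Dbp and Hlf were the others. Of the 6 calls, 2 were kept by DESeq2 and 4 without the library term. Of 28 potassium channel genes, 10 were higher and 5 lower than in layer 6, of which DESeq2 kept 7 and 2. Kcnc2, a fast channel of the Kv3 family, was at 293 and 298 CPM against 96.6 and 137 CPM.

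The cortical-led Rorb nuclei were not uniform. Cux2 had played no part in their choice, and 163 of 259 nuclei held at least 1 UMI of it in ShamRT-28d (62.9%, 56.7 to 68.8), against 254 of 321 in WBRT-28d (79.1%, 74.3 to 83.4). Thinned to 2000 UMIs per nucleus, the shares were 33.1% and 47.9%. In oligodendrocytes, a glial class, the shares were 14.0% and 18.9%, and 11.0% and 14.5% after thinning. The source of their Cux2 UMIs was not tested. Nuclei with Cux2 were deeper, with a median of 8779 and 8209 UMIs, than those without, with 5644 and 4747. The Cux2-negative nuclei, 96 in ShamRT-28d and 67 in WBRT-28d, may therefore include nuclei in which Cux2 was missed, which was not tested.

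Between them, markers of layer 5 were lower in the Cux2-positive nuclei. Of 9850 genes tested, 200 were higher in Cux2-positive nuclei (2.03%) and 287 lower (2.91%) by edgeR's quasi-likelihood test, but DESeq2 called 96 and the fit without the library term 84, so single calls are given as levels. In the edgeR fit of the cortical-led nuclei the spread was shared fully across genes, so a gene's own spread carried no weight. With all 774 nuclei, 260 of 10486 were higher (2.48%) and 677 lower (6.46%). Layer 5 intratelencephalic genes were lower for 5 of 8 tested, with Deptor, an inhibitor of mTOR, at 25.4 and 20.3 CPM in Cux2-positive and at 98.5 and 109 CPM in Cux2-negative nuclei. Layer 5 extratelencephalic genes were lower for 3 of 6, with Bcl11b, a factor of subcerebral projection neurons, at 6.50 and 11.0 CPM, from 11 and 25 UMIs, against 79.6 and 72.6 CPM. DESeq2 kept 3 of the first list's calls and 2 of the second's.

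Of 10 layer 2/3 genes, 2 were higher in Cux2-positive nuclei and 0 lower, and DESeq2 kept 0 of these calls. Over all genes tested in this split, 2.03% were higher and 2.91% lower. Cux1, the paralogue of Cux2, was at 744 and 582 CPM in Cux2-positive nuclei and at 174 and 329 CPM in Cux2-negative nuclei. Of 8 layer 4 genes, 4 were higher in Cux2-positive nuclei and 2 lower, of which DESeq2 kept 2 and 1. Rspo1 was at 47.2 and 55.1 CPM in Cux2-positive nuclei against 15.2 and 8.37 CPM. Il1rapl2, a receptor-like gene of the interleukin 1 family at synapses, was at 168 and 77.6 CPM against 1004 and 1541 CPM. Tox, a chromatin factor, was at 159 and 72.3 CPM against 773 and 374 CPM, and Iqgap2, a scaffold of the actin skeleton, at 17.1 and 16.3 CPM against 133 and 176 CPM. In all of these genes the levels of Cux2-positive and Cux2-negative nuclei did not overlap, but they were named for this difference.

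Between the conditions, most genes of the cortical-led Rorb nuclei lay close to a ratio of 1. Of 6414 genes that reached 100 UMIs in both libraries together, 249 were more than 1.5-fold higher in WBRT-28d (3.88%) and 267 more than 1.5-fold lower (4.16%), with a median log2 ratio of 0.02. Over all 774 nuclei, 512 of 7322 genes were higher (6.99%) and 271 lower (3.70%), led by the transcription factor gene Mecom (6 and 129 UMIs) and by Npsr1 (167 and 46 UMIs). Because ShamRT-28d held more Cux2-negative nuclei, ratios were also taken among Cux2-negative and among Cux2-positive nuclei alone.

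The genes that chose the nuclei give a first view of that mixture. Rorb was at 1621 CPM (1572 to 1672) in ShamRT-28d and 1234 CPM (1192 to 1277) in WBRT-28d, a ratio of 0.761, with 1.01 among Cux2-negative and 0.682 among Cux2-positive nuclei. Slc17a7 had a ratio of 0.977 (0.873 to 1.09). Of 14 measured cortical identity genes, 0 were past 1.5-fold higher and 2 lower, with Neurod6 among them, and the summed level of the list had a ratio of 0.887 (0.871 to 0.903). The summed layer 4 list had a ratio of 1.04. The summed layer 2/3 list, from which Cux2 was left out as a gate gene, had a ratio of 1.08. It was 1.67 (1.42 to 1.95) among Cux2-negative and 0.903 (0.850 to 0.958) among Cux2-positive nuclei. The layer 5 extratelencephalic list went from 115 to 62.8 CPM, a ratio of 0.546 (0.448 to 0.664). Among its genes, Parm1 and Bcl11b turned above 1 in Cux2-positive nuclei (1.03 and 1.70), so their lower level was not seen in both kinds of nuclei.

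Metabotropic glutamate receptors and GABA receptors held several lower genes. Over all measured genes of these nuclei, 3.88% were past 1.5-fold higher and 4.16% lower. Grm3 went from 982 CPM (2440 UMIs) in ShamRT-28d to 470 CPM (1235 UMIs) in WBRT-28d, a ratio of 0.479 (0.447 to 0.513). The ratio was 0.384 in Cux2-negative and 0.483 in Cux2-positive nuclei, 0.567 in Cux2 nuclei and 0.549 in layer 6 nuclei, and 0.886 in all other kept nuclei. Of 9 measured genes of this list, 3 were past 1.5-fold lower and 1 higher, and the higher one was Homer1. Grm8 turned above 1 in Cux2-negative nuclei (1.27). The lower level of Grm3 was thus present in both kinds of Rorb nuclei and in both neighbouring classes.

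Of 14 measured GABA receptor genes, 0 were past 1.5-fold higher and 4 lower, Gabrg3, Gabra5 and Gabra3 among them, while the summed list had a ratio of 0.946. Gabrg3 had a ratio of 0.545 (0.488 to 0.608), but 0.769 and 0.684 within the kinds of nuclei, closer to 1 than the pool in both. Of 20 AMPA, kainate and NMDA receptor genes, 3 were higher (Grik1, Grin3a and Cacng2) and 1 lower (Gria3). Grik1 was at 2.50 in the pool and at 1.88 in Cux2-positive nuclei, with 4 and 20 UMIs in Cux2-negative ones. Gria3 went from 481 to 284 CPM, a ratio of 0.590 (0.538 to 0.647), with 0.851 and 0.680 within. Gria2 and Grin2a, main subunits of AMPA and NMDA receptors, had ratios of 0.862 and 0.981. Most measured members of each receptor family lay within 1.5-fold.

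Other neuronal lists were close to 1 in sum. Beside the 3.88% higher and 4.16% lower of all measured genes, lists of this length cannot set a count of 0 to 2 apart. The 24 measured genes of presynaptic release held 0 past 1.5-fold in either direction, with Snap25, a protein of the fusion complex, at a ratio of 1.02. The 19 sodium and calcium channel genes held 0 as well. Of 25 potassium channel genes, 2 were higher and 2 lower, and the 2 lower were Kcna1 and Kcnj3, at ratios of 0.645 and 0.657. Kcnj3, a channel opened by G proteins, had a ratio of 0.633 in all other kept nuclei, so the lower value was not particular to the Rorb nuclei. Of 24 synaptic adhesion genes, 0 were higher and 5 lower, Nlgn3, Cntnap4, Lrrtm1, Cdh13 and Cdh18. Cdh13 turned to 1.08 in Cux2-positive nuclei. Of 25 axon guidance genes, 3 were higher (Sema3a, Slit1 and Epha10) and 0 lower.

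The genes furthest from 1 had no common list. Zfp804b, a zinc finger gene, went from 388 to 132 CPM, a ratio of 0.341 (0.300 to 0.386), with 0.298 in Cux2-negative and 0.427 in Cux2-positive nuclei. Gpc6, a heparan sulfate proteoglycan of the cell surface, went from 494 to 201 CPM, a ratio of 0.406 (0.366 to 0.450), with 0.410 and 0.496 within, while in Cux2 nuclei it was 1.03 and in layer 6 nuclei 1.16. Tox went from 355 to 113 CPM, a ratio of 0.320 (0.280 to 0.365), with 0.484 and 0.454 within. Hunk, Etv1, Galnt14, Pcsk5, Ndst3, Parm1 and Npsr1, at ratios from 0.255 (Npsr1) to 0.387 (Ndst3), made up the 10 leading lower genes. Hunk and Galnt14 were closer to 1 in Cux2-negative nuclei (0.753 and 0.758), and Etv1 and Ndst3 in Cux2-positive nuclei (0.784 and 0.766). For Zfp804b, Gpc6 and Tox both kinds of nuclei showed the same direction. Among nuclei with at most 10000 UMIs, however, the ratios of Zfp804b, Gpc6 and Tox were 0.796, 0.702 and 0.677, closer to 1 by more than 1.5-fold, whereas Grm3 was at 0.483. Parm1 turned to 1.71 there.

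On the higher side, Tanc1, a scaffold protein of the postsynaptic density, went from 44.7 to 149 CPM, a ratio of 3.33 (2.69 to 4.15), with 3.68 in Cux2-negative and 2.95 in Cux2-positive nuclei. It was 2.61 in Cux2 nuclei, 2.18 in layer 6 nuclei and 1.24 in all other kept nuclei. Lrrk2, a kinase linked to Parkinson's disease, went from 124 to 318 CPM, a ratio of 2.56 (2.24 to 2.92), with 2.07 and 2.61 within, 2.20 in Cux2 nuclei and 1.53 in all other kept nuclei. Erdr1, annotated on the Y chromosome, had a ratio of 3.50 (3.10 to 3.96) and of 3.18 in all other kept nuclei, so that it differed between the libraries as wholes. The study's methods give its C57BL/6J mice as female. Over all kept nuclei of ShamRT-28d and WBRT-28d, Ddx3y, a gene of the Y chromosome proper, had 5 and 11 UMIs, and the X-linked Xist was at 2614 and 2466 CPM. Ebf1 and Flt1, at ratios of 7.37 and 4.79, rested on few nuclei, with UMIs in 5 and 26 and in 7 and 28 nuclei. The other leading genes were Tshz2, Erbb4, Glis3, Ptprz1 and Nnat, at ratios from 3.04 (Ptprz1) to 4.29 (Tshz2). Tshz2 was at 13.4 in Cux2-negative and at 2.80 in Cux2-positive nuclei.

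**Figure D4:**
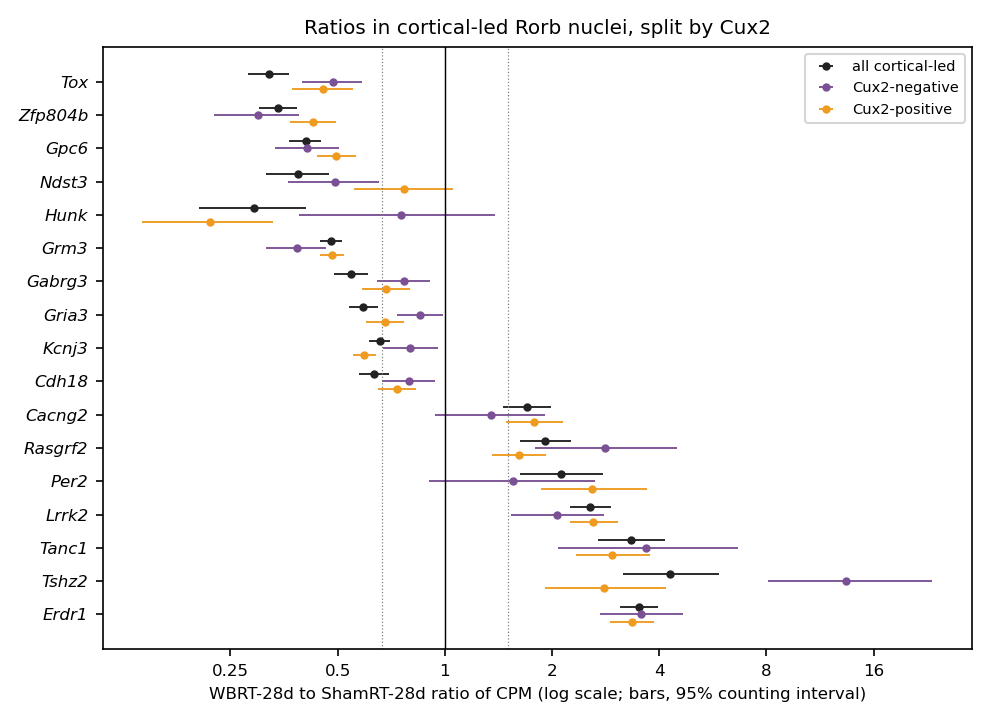
Ratio of WBRT-28d to ShamRT-28d (log axis, exact 95% intervals for counting error, dotted lines at 1.5-fold) of 17 genes in all cortical-led Rorb nuclei and in those with 0 and with at least 1 Cux2 UMI. Grm3 lay at 0.479, 0.384 and 0.483, whereas Ndst3 lay at 0.387 in the pool and at 0.766 in Cux2-positive nuclei.

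Immediate early genes, which neurons switch on after activity, were in sum higher in the Rorb nuclei of WBRT-28d and lower in the other classes. The 19 listed genes, which include Bdnf, summed to 657 CPM in ShamRT-28d and 1009 CPM in WBRT-28d, a ratio of 1.54 (1.44 to 1.63), and 3 of 6 measured genes were past 1.5-fold higher. In cortical-led Cux2 nuclei the summed ratio was 0.752 (0.689 to 0.820) and in layer 6 nuclei 0.701 (0.662 to 0.743), and in all other kept nuclei 0.750. Homer1, whose short form is induced by activity, held most of the UMIs, and gene counts do not separate its forms. It went from 410 to 678 CPM in the Rorb nuclei, from 694 to 527 CPM in Cux2 nuclei and from 858 to 609 CPM in layer 6 nuclei. Without Homer1 the Rorb ratio was 1.34 (1.21 to 1.49).

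Egr1 had a ratio of 1.71 (1.30 to 2.27) and Nr4a1 of 1.77 (1.29 to 2.45), both transcription factors of this response. Fos, with 17 UMIs in ShamRT-28d and 32 in WBRT-28d, had a ratio of 1.78 whose interval (0.960 to 3.42) included 1, as did that of Arc, at 1.24 (0.929 to 1.65). In Cux2-positive nuclei the summed ratio was 1.67 (1.55 to 1.80) and without Homer1 1.52 (1.34 to 1.72), and Egr1 and Nr4a1 were both at 2.10. In Cux2-negative nuclei the summed ratio was 1.17 (1.01 to 1.34). Without Homer1 it was 0.834 there, with an interval (0.643 to 1.07) that included 1. Egr1 was at 1.01 and Nr4a1 at 1.19 in the Cux2-negative nuclei, and Arc, with 32 and 3 UMIs, at 0.207 (0.0406 to 0.662) against 1.49 in the Cux2-positive ones.

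**Figure D5:**
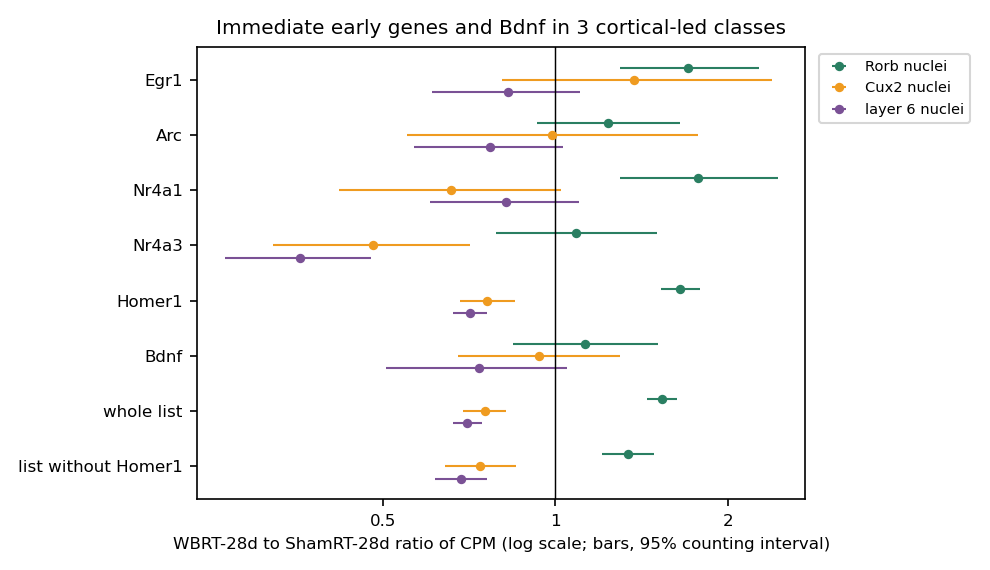
Ratio of WBRT-28d to ShamRT-28d (log axis, exact 95% intervals for counting error) of immediate early genes in cortical-led Rorb, Cux2 and layer 6 nuclei. Homer1 lay at 1.65 in the Rorb nuclei, where its level went from 410 to 678 CPM, and below 1 in the other classes.

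Lists linked to radiation damage and metabolism held 0 to 2 genes past 1.5-fold each. Beside the 3.88% higher and 4.16% lower of all measured genes, lists this short cannot set such counts apart. Of 30 listed p53 targets and inhibitors of cyclin-dependent kinases, only 7 had enough UMIs to be measured. Of these 7, 0 were past 1.5-fold in either direction, and the other listed genes were not compared singly. Mdm2, the ligase that degrades p53, was at 1.08 (0.817 to 1.44), and the summed ratio of the list was 1.09. Of 13 DNA repair genes, 0 were higher and 1 lower. Bcl2, which restrains apoptosis, had a ratio of 1.40 (1.14 to 1.73) and its relative Bcl2l1 of 0.984. The 16 respiratory chain genes held 2 lower and 0 higher, with a summed ratio of 0.916 (0.866 to 0.970). The cholesterol synthesis list held 1 lower of 8, Hmgcs1 at 0.419 (0.294 to 0.589), with a summed ratio of 0.839 (0.774 to 0.909). Of 15 clock genes, 1 was higher, Per2 at 2.12 (1.63 to 2.78), which had a ratio of 1.30 in all other kept nuclei. The shares of the repair, respiratory and cholesterol lists that were lower, and of the clock list that was higher, lay above the 4.16% and 3.88% of all measured genes, each on 1 or 2 genes.

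Markers of some other cells were higher in the cortical-led Rorb nuclei of WBRT-28d. The counts past 1.5-fold stand beside 3.88% higher and 4.16% lower of all measured genes. A gene was measured by its UMIs in both libraries together, so a gene scarce in ShamRT-28d was measured only if WBRT-28d held enough. The counts past 1.5-fold in scarce lists are therefore partly set by that minimum. The summed ratios use every listed gene. The interneuron list went from 132 to 323 CPM, a ratio of 2.45 (2.16 to 2.79), with all 3 of its 10 genes that were measured, Erbb4, Nxph1 and Adarb2, past 1.5-fold, while Gad1 and Gad2 were at 0 by the gate. The vascular list went from 26.2 to 84.9 CPM, a ratio of 3.25 (2.45 to 4.35). It held 65 UMIs in ShamRT-28d and 223 in WBRT-28d, so Flt1, its measured gene, reached the minimum only with its WBRT-28d UMIs. The astrocyte list went from 835 to 977 CPM, a ratio of 1.17 (1.11 to 1.24), with 2 of 4 past 1.5-fold, and the oligodendrocyte list from 551 to 631 CPM, a ratio of 1.14 (1.07 to 1.23), with 1 of 8. The oligodendrocyte ratio was 1.92 (1.66 to 2.22) in Cux2-negative nuclei and 1.01 (0.926 to 1.10) in Cux2-positive ones. The microglia list had a ratio of 1.04 (0.896 to 1.20), with 0 of 3 past 1.5-fold, and the OPC list of 1.05 (0.980 to 1.12), with 1 of 2. The near-projecting list went from 60.4 to 139 CPM. In Cux2 nuclei the interneuron ratio was 6.74 and in layer 6 nuclei 2.20. The part of this RNA in Erbb4, Tshz2, Flt1, Ptprz1 and the other ratios was not tested.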

How the data were processed

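Reads of the droplet libraries were mapped by the authors to mm10, with a pre-mRNA reference they built so that intronic reads count, using Cell Ranger 5.0.0. They deposited raw UMI counts per gene and barcode, without normalization or cell types. Seurat 3.0 and R 3.5.3 appear in the submitters' processing notes. The chemistry given in the labels is 3′ version 2.

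Barcodes with fewer than 500 detected genes (326 in ShamRT-28d, 0 in WBRT-28d) or over 5% mitochondrial UMIs (106 and 318) were left out, and 11037 and 15668 nuclei were kept. No doublet caller was run. The Rorb nuclei held 2727413 and 3236458 UMIs, and the cortical-led ones 2485223 and 2625591. The nuclei, the 33 gene lists and the tests were chosen with earlier results of these data known. A nucleus counted as cortical-led when its UMIs of the cortical list exceeded those of each of the other 6 lists, ties excluded, a rule set after seeing the data.

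Between conditions, UMIs were summed, scaled to the total and compared as ratios with exact conditional binomial intervals at 95%, for genes with at least 100 UMIs over both libraries. Reads of a molecule share a UMI, and intervals cover counting error only. Between classes, sums per class and library were tested with edgeR 4.0.16 (quasi-likelihood, TMM, filterByExpr, library as a block) at a Benjamini-Hochberg adjusted p of 0.05. The library block pairs the classes because they come from the same pooled mice. In simulated counts for Rorb against Cux2 nuclei, 94 of 100 genes set at 4-fold and 58 of 100 at 2-fold were called, and 9 of 11093 unchanged genes. These counts were drawn from a shared mean profile, with the same spread for every gene and no library effect. The rates therefore need not hold for the real counts. DESeq2 1.42.0, other filters, scalings and gates were alternatives. The genes named are the 10 per direction whose interval bound or fold was furthest from no difference (for class comparisons with at least 200 UMIs), up to 4 per list, and the marker genes. Genes named beyond these were chosen after their values were seen. The work used R 4.3.3 and Python 3.11.15 with pandas 2.3.3, scipy 1.17.1, matplotlib 3.10.9 and numpy 2.4.6. A few genes of these lists count in their lists but are not reported here by name.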

Additional observations from a re-analysis of the deposited data

Results flagged for a closer look

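The summed ratio of immediate early genes and Bdnf between WBRT-28d and ShamRT-28d differed in direction between classes of cortical neurons. It was 1.54 in cortical-led Rorb nuclei and lay below 1 in cortical-led Cux2 nuclei (0.752) and layer 6 nuclei (0.701). Each class has 1 library per condition, so the difference between the classes was not tested. Homer1 held most of the UMIs, and without it the Rorb ratio was 1.34. Among Cux2-negative Rorb nuclei the ratio without Homer1 was 0.834 (0.643 to 1.07).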

How the results depend on the processing

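The ratio of the shares of Rorb nuclei among kept nuclei, 1.04 as reported, was 0.871 after thinning, 1.27 within the excitatory gate and 0.873 for cortical-led nuclei. The 783 genes past 1.5-fold became 242 at a minimum of 300 UMIs, 463 with at least 1 Cux2 UMI, 507 with at least 2 Slc17a7 UMIs, 516 in cortical-led nuclei and 33 of 61 measured in the 9 and 7 nuclei without any glial UMI. The 516 became 143 at 300 UMIs and 295 with 0 Cux2 UMIs. Against Cux2 nuclei, the 796 calls over all nuclei became 395 with DESeq2, 1266 without the filter, 61 without the library block that pairs the classes and, without glial UMIs, 0 in edgeR's test (34 at an unadjusted p under 0.05). The 534 cortical-led calls became 299, 907 and 132 (295 of them kept by DESeq2). Against layer 6, the 1321 calls became 621 with DESeq2, 358 without the block and 2 without glial UMIs, and the 1251 cortical-led calls 589 and 601. For the Cux2 split, the 937 calls became 378 with DESeq2, 487 in cortical-led nuclei, 0 in edgeR's test without the block (1499 unadjusted) and 0 without glial UMIs (4 unadjusted), and the 487 became 96 and 84. The nuclei without glial UMIs were few, which leaves 509 genes or fewer to test for the Rorb and Cux2 nuclei. Taken in each library alone, with no test, all 796, 1321, 534 and 1251 calls kept their direction, as did 936 to 937 of 937 and 485 to 486 of 487. The calls were made on these same libraries, so their kept direction adds nothing to them. Log2 ratios of cortical-led nuclei that changed sign were, at most 10000 UMIs per nucleus, Parm1 0.77, Il1rapl2 0.10, Bcl11b 0.57 and Grm8 0.24, with 0 Cux2 UMIs, Il1rapl2 0.62, Deptor 0.14 and Grm8 0.34, and with at least 1, Parm1 0.048, Bcl11b 0.76 and Cdh13 0.11. The cause of the other changes was not tested. Other minimums of Rorb UMIs, DESeq2 size factors in edgeR and scaling to the median gene ratio moved no count by over 1.5 times. The alternatives on cortical-led nuclei and on Slc17a7 were chosen after seeing the data.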
